A study of Mus musculus with 2 samples.

Results

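The genes of MHC class II antigen presentation were examined in RNA-seq data from primary mouse hepatocytes. The 8 members, H2-Aa, H2-Ab1, H2-Eb1, H2-DMa, H2-DMb1, Cd74, Ciita and Cd86, were chosen by name as a working list of the pathway, found in the mRNA table through their RefSeq identifiers, and set against the 20317 genes with a symbol in that table. Both libraries came from wild-type male C57BL/6J mice that, per the methods, were 5 weeks old when obtained. Mice of the control library received oil intraperitoneally, and mice of the CCl4 library received a 20% CCl4 solution in mineral oil, at 2.5 ml CCl4 per kilogram and 2 injections per week. The labels give 8 weeks of injection, whereas the study's methods give a shorter course. Hepatocytes were freed by pronase and collagenase perfusion and purified on a density gradient, so that other liver cells can remain in the preparation. The study checked the purity of its hepatocytes by qRT-PCR of hepatocyte, stellate cell and Kupffer cell genes. Whether the sequenced preparations were among those checked is not given in the sources used here. There was 1 library per condition, and the number of mice behind each is not given in the sources used here. None of the differences below therefore has a replicate check, and no p-value is given.

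MHC class II molecules carry peptides from ingested proteins to the cell surface, where CD4+ T cells read them. An alpha and a beta chain (H2-Aa with H2-Ab1, or the Ea chain with H2-Eb1) assemble in the endoplasmic reticulum on the invariant chain, Cd74, which blocks the groove until lysosomal proteases degrade it. H2-DM, made of H2-DMa and H2-DMb1, then exchanges the last invariant chain fragment for a peptide, and H2-O inhibits H2-DM. Ciita is the coactivator that switches the class II promoters on, and Cd86 is a costimulatory ligand for Cd28 on the T cell. In liver the pathway is known mainly from dendritic cells, Kupffer cells, other macrophages and B cells, and hepatocytes have little of it at rest.

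Class II promoters are known for an X box, bound by the RFX complex, that lies upstream of a Y box, bound by NF-Y, and Ciita acts through the factors on both. The stretches below show this arrangement in members whose RNA differed together between the libraries. They were read from RefSeq promoters (GRCm38.p6, 250 bases before to 50 after the start), which matched H2-Aa, H2-Eb1, H2-DMb1 and H2-DMa among the members. H2-Aa lies at chr17:34287861-34287913 on the minus strand, and on the plus strand are H2-Eb1 at chr17:34305767-34305818, H2-DMb1 at chr17:34153088-34153140 and, for comparison, the H2-O chain gene H2-Ob at chr17:34238809-34238858. Capitals mark letters of the X type, CNNGNAAC, and of the Y box, TGATTGG, each line running 5′ to 3′ toward the start.
H2-Aa: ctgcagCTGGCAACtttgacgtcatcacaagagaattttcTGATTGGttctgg
H2-Eb1: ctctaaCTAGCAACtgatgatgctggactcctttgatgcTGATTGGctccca
H2-DMb1: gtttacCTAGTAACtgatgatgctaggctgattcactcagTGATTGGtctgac
H2-Ob: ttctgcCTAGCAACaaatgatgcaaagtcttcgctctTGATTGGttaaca

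The X-type letters begin at position -84 in H2-Aa, -94 in H2-Eb1, -97 in H2-DMb1 and -90 in H2-Ob, counted from the start, and 26, 25, 26 and 23 bases separate them from the Y box in that order. The letters were set after these promoters had been read, so their presence there is not a finding. The spacing allowed for the pair, 20 to 30 bases, takes in the 23 to 26 bases seen here. The share of promoters with the pair is therefore no test of these promoters either. On either strand, CNNGNAAC was in 39.1% of all 32851 promoters of the same length and TGATTGG in 7.82%, whereas both in this order with 20 to 30 bases between them were in 25 promoters, or 0.0761%. The same pair was in H2-Oa and H2-Eb2. Neither of the H2-DMa windows held the pair, nor did H2-DMb2. The H2-DMa windows held the X-type letters without the Y box, and H2-DMb2 held both but not in this order and spacing. This says only that the pair, as set here, is not in those windows. The pair was in 23 genes, of which 12 that are not class II genes were listed above 0 in a library. Of those 12, 1 passed the threshold used here upward and 1 downward, where the shares over all genes were 15.8% and 5.29%. The upward one was Plk1, listed at 0 in oil. Plk1 and Ift74, also at 0 in oil, have no fold change, and the median log2 fold change of the others was 0.19.

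RPKM, the reads of a transcript relative to its length and to the library size, was used as the authors deposited it, and values under 1 RPKM are listed as 0. The steps between RPKM values of short genes gave 57992587 reads for the oil library and 64655545 for the CCl4 library. Fold changes are log2 of CCl4 over oil with 0.1 RPKM added to both, and a gene was called higher or lower where this value was 1 or more in size. A gene listed at 0 in 1 library has no fold change here and was called only if the other library reached 2 RPKM. Hepatocyte markers were present in both libraries, with Alb at 8656 RPKM in oil and 6476 RPKM with CCl4. Of 12012 genes above 0, 15.8% were called higher and 5.29% lower in the CCl4 library, and the median gene was higher by 0.30 on the log2 scale. At transcript level 2649 (15.9%) were higher and 857 (5.14%) lower, a split that became 1429 higher and 1517 lower when the libraries were scaled to the median transcript.

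Against that background 7 of the 8 members were called higher in the CCl4 library and 0 lower, and the median log2 fold change over the members was 1.53. The remaining member was Cd86. The members' fold changes ran from 0.29 to 1.97, and 7 of 8 exceeded that of at least 90.6% of all genes with a value in both libraries. With libraries scaled to the median transcript, 6 of 8 members were called higher, with Cd74 at 0.88 no longer among them and H2-DMa just at the threshold. With scaling to 6 pan-leukocyte genes, of which 5 were themselves called higher, 0 of 8 members were called and their median was 0.44. In bulk RNA of this kind, more cells of a type and more RNA per cell cannot be told apart.

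**Figure D1:**
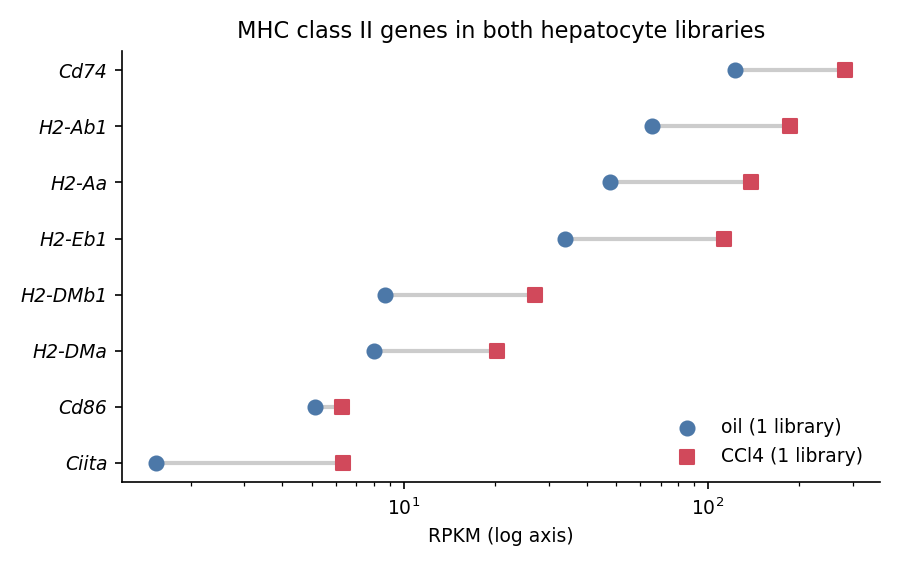
RPKM of the 8 members (log axis) in the oil library (circles) and the CCl4 library (squares), 1 library each, joined by a line per gene. Cd74 is highest at 122.5 and 283.1 RPKM and Ciita lowest in oil at 1.54 RPKM, and the line of Cd86 is the shortest.

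The classical class II chains were abundant in both libraries. H2-Ab1, the beta chain of I-A (chr17:34263227-34269418, NM_207105), was at 65.6 RPKM in oil and 186.8 RPKM with CCl4. H2-Aa, its alpha chain partner (chr17:34282744-34287823, NM_010378), was at 47.7 and 139.1 RPKM. H2-Eb1, the beta chain of I-E (chr17:34305867-34316674, NM_010382), was at 33.9 and 113.0 RPKM. All 3 were thus higher in the CCl4 library by a similar factor, 2.85 for H2-Ab1, 2.92 for H2-Aa and 3.33 for H2-Eb1.

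The log2 fold changes of these chains were 1.51, 1.54 and 1.73 in the same order. Counting error alone places the log2 ratio of H2-Ab1 between 1.46 and 1.57, that of H2-Aa between 1.48 and 1.60, and that of H2-Eb1 between 1.68 and 1.80 (95% exact Clopper-Pearson intervals on reads recovered from the RPKM values, which are lower bounds). The intervals of both I-A chains overlapped, and that of H2-Eb1 lay above them, but with single libraries the spread between preparations is unknown. The ratio of H2-Aa to H2-Ab1 was 0.727 in the oil and 0.744 in the CCl4 library, so the I-A pair kept nearly the same proportion, and H2-Eb1 per H2-Ab1 was 0.517 and 0.605. C57BL/6 mice are known to lack a working Ea chain, the partner of H2-Eb1. H2-Ea was looked up among the mRNA transcripts and had no entry, so it has no value here.

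Cd74, the invariant chain that also serves as a surface receptor for the cytokine MIF (chr18:60803849-60812652), was the most abundant member in both libraries. Its transcript NM_010545 was at 122.5 RPKM in oil and 283.1 RPKM with CCl4, above 96.6% and 98.9% of the genes. The second transcript in the table, NM_001042605, was at 111.4 and 256.4 RPKM, and since such transcripts share most of their reads this is not a separate measurement. The log2 fold change was 1.21, with a counting interval from 1.16 to 1.25 that lay below those of H2-Aa, H2-Ab1 and H2-Eb1. Accordingly, Cd74 per summed H2-Aa, H2-Ab1 and H2-Eb1 was 0.833 in the oil and 0.645 in the CCl4 library. Together these 4 genes made up 269.7 RPKM in oil and 721.9 RPKM with CCl4, a log2 ratio of 1.42.

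The peptide exchange factor H2-DM was less abundant than I-A in both libraries. H2-DMa (chr17:34119693-34139101, NM_010386) was at 8.01 RPKM in oil and 20.2 RPKM with CCl4, its log2 fold change being 1.33 with a counting interval from 1.17 to 1.51. H2-DMb1 (chr17:34153191-34160229, NM_010387) was at 8.70 and 27.0 RPKM, its log2 fold change being 1.62 with an interval from 1.51 to 1.76. In the oil library both chains stood close to each other, and in the CCl4 library H2-DMa per H2-DMb1 was 0.749 against 0.920 in oil. H2-Ab1 per H2-DMb1 was 7.54 in the oil and 6.91 in the CCl4 library.

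H2-DMb2, a neighbouring and closely related copy of H2-DMb1, was at 2.15 RPKM in oil and 7.65 RPKM with CCl4, and how the authors' counting treated reads that fit both is not given in the sources used here. The sum of both copies was 10.9 RPKM in oil and 34.7 RPKM with CCl4, a log2 ratio of 1.68, so a different sharing of reads between them would leave the direction as it is. Of the H2-O chains, H2-Ob was at 1.45 and 3.39 RPKM, a log2 fold change of 1.18, and H2-Oa was listed at 0 in oil and at 2.59 RPKM in the CCl4 library. H2-Eb2 was listed at 0 in both libraries. Thus 3 of the 4 other class II chains found in the table were called higher and 0 lower, H2-Ob losing its call with 1 RPKM added (0.84) and with scaling to the median transcript (0.86) or the upper quartile (0.93). With a mean of at least 5 RPKM required 0 of these low chains were called, and with genes at 0 left out, which removes H2-Oa, 2 were.

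Ciita, the class II coactivator (chr16:10480014-10531064), had, with 0.1 RPKM added, the largest fold change of the 8 members and the lowest level in oil. NM_001243760 was at 1.54 RPKM in oil and 6.31 RPKM with CCl4, with a log2 fold change of 1.97. NM_001243761 and NM_007575 gave log2 fold changes of 1.89 and 1.90, from much the same reads. Behind these levels stood no fewer than 479 oil and 2188 CCl4 reads, and the counting interval of the log2 ratio was 1.89 to 2.18. At this level the added 0.1 RPKM matters, and with 1 RPKM added the log2 fold change was 1.53, below the 1.71 of H2-Eb1 and level with H2-DMb1 and H2-Aa, so that the first rank of Ciita was lost. H2-Ab1 per Ciita was 42.5 in the oil and 29.6 in the CCl4 library.

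Cd86 (chr16:36568956-36666158, NM_019388) did not follow the other members. It was at 5.10 RPKM in oil and 6.26 RPKM with CCl4, and its log2 fold change was 0.29, with a counting interval from 0.16 to 0.43. Relative to the median gene the difference was -0.0055, and with libraries scaled to the median transcript it was -0.030. Cd86 and Ciita therefore exchanged places, with Cd86 ranking 7 and Ciita 8 among the members in oil and the reverse in the CCl4 library, although at 6.26 and 6.31 RPKM they were nearly level there. H2-Ab1 per Cd86 was 12.9 in the oil and 29.9 in the CCl4 library.

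**Figure D2:**
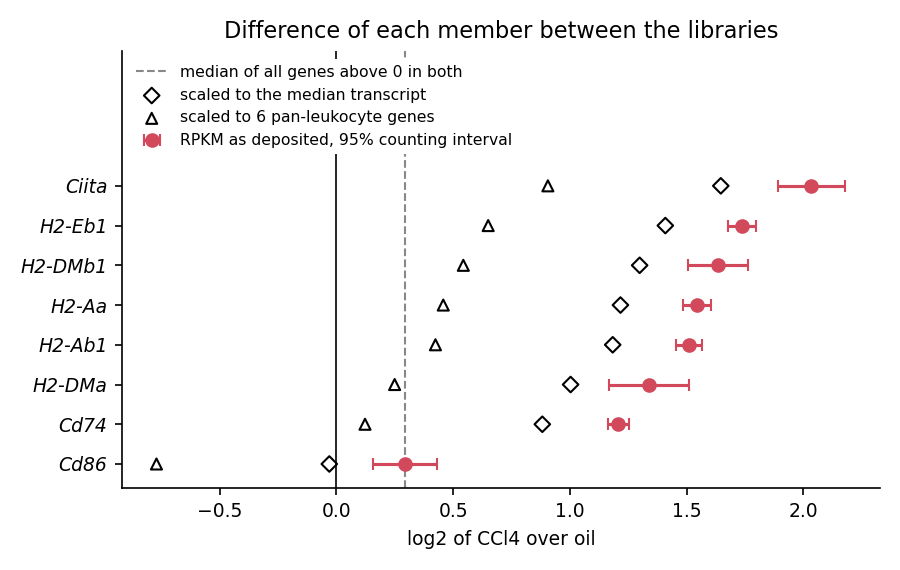
Log2 of CCl4 over oil for the 8 members, with nothing added to the RPKM (filled circles, bars for 95% counting intervals), and with 0.1 RPKM added after scaling the libraries to the median transcript (diamonds) or to 6 pan-leukocyte genes (triangles). The dashed line is the median of all genes, 0.30, on which Cd86 sits, while the other 7 members lie between 1.21 and 2.03 unscaled.

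The class II genes of chromosome 17 are interleaved with genes of the class I pathway, and neighbours were compared there, a view chosen after the values were known. In GRCm38.p6 the order from H2-Oa runs through Brd2, H2-DMa, H2-DMb2 and H2-DMb1 to Psmb9, Tap1, Psmb8 and Tap2, and then to H2-Ob, H2-Ab1, H2-Aa, H2-Eb1 and H2-Eb2. Psmb9 and Psmb8, subunits of the immunoproteasome, were at 17.2 and 31.3 RPKM in oil and at 24.1 and 41.2 RPKM in the CCl4 library. Tap1 and Tap2, the peptide transporter of class I loading, were at 12.7 and 13.9 RPKM in oil and at 18.0 and 19.0 RPKM in the CCl4 library. The log2 fold changes of these 4 genes lay between 0.40 and 0.50 and that of Brd2 was 0.45, whereas the 7 class II genes around them with a value in both libraries had at least 1.18. No counting interval of the 4 reached that of a class II member of this region.

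**Figure D3:**
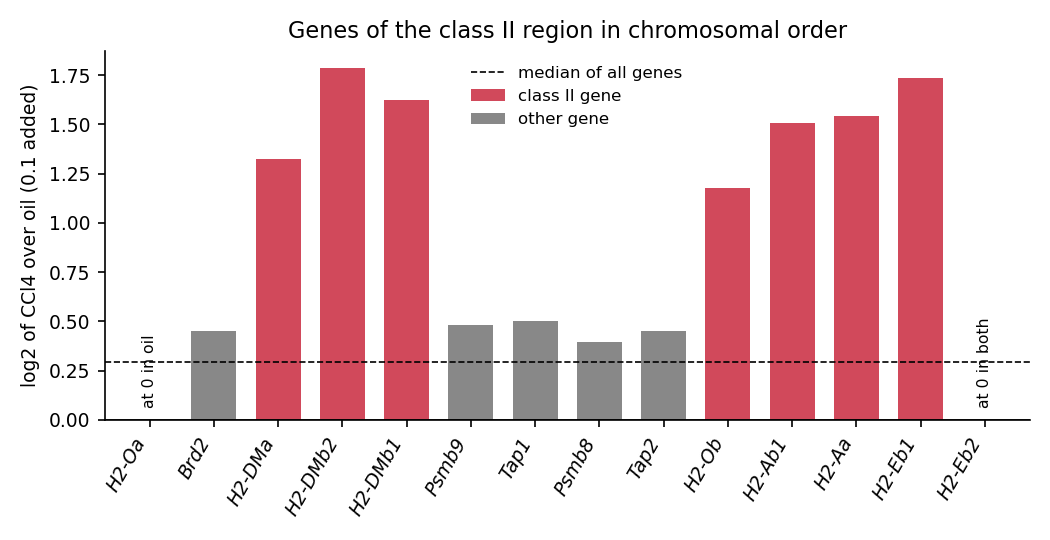
Log2 of CCl4 over oil (0.1 RPKM added) for the 14 genes of the class II region with a row in the mRNA table, in chromosomal order, class II genes in red and other genes in grey. Bars of class II genes stand between 1.18 and 1.79 and those of the other genes between 0.40 and 0.50, and genes listed at 0 have no bar.

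The wider class I pathway showed the same contrast. Of its 16 listed genes, 0 were called higher and 0 lower, and the median log2 fold change was 0.094, under the 0.30 of all genes. With scaling to the median transcript the list's median was -0.23, and with the upper quartile -0.16. With the pan-leukocyte scaling it was -0.99, and 8 of the 16 were called lower. B2m, the light chain of class I molecules, was at 666.5 RPKM in oil and 670.0 RPKM with CCl4. H2-K1, a classical heavy chain, was at 627.5 and 515.4 RPKM, and H2-D1, the other, at 448.6 and 607.4 RPKM. H2-Ab1 per B2m was 0.0984 in the oil and 0.279 in the CCl4 library.

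Among proteases and reductases that prepare class II peptides, 5 of 8 genes were called higher and 0 lower, with a median log2 fold change of 1.30. Ctss, cathepsin S, which trims the invariant chain in professional antigen presenting cells, was at 93.5 RPKM in oil and 389.5 RPKM with CCl4, a log2 fold change of 2.06. Ctsd, an aspartic protease of lysosomes, had the largest fold change of this list, 2.55, from 215.3 to 1258 RPKM. Ctsb, Lgmn and Ifi30, the last a thiol reductase that opens disulfide bonds of antigens, had log2 fold changes of 1.55, 1.35 and 1.25, and Ifi30 lost its call with scaling to the median transcript (0.93) or the upper quartile (0.99). Ctsz, Ctsh and Ctsl, not called, had 0.95, 0.54 and 0.45. These enzymes also serve general lysosomal turnover and are present in many cell types.

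Of 8 promoter factor genes, the RFX and NF-Y subunits through which Ciita acts, Creb1 and Nlrc5, 1 was called higher and 0 lower, and the median log2 fold change was 0.20. Without Nlrc5, which acts on class I promoters, the median was that of Nfyc, 0.26. Of the RFX complex, Rfx5 had a log2 fold change of 0.79, Rfxap 0.15 and Rfxank -0.27. Of the NF-Y subunits, Nfya had 1.07, Nfyc 0.26 and Nfyb -0.87, so that Nfya, at 3.04 RPKM in oil, was the gene that passed. Nfya did not pass with 1 RPKM added or with scaling to the median transcript, and in the latter case 0 of the 8 genes were higher and 1, Nfyb, was lower. The list's median turned negative with scaling to the median transcript (-0.11) or the upper quartile (-0.049), and with a mean of at least 5 RPKM required (-0.30). Nlrc5, a relative of Ciita, was at 5.16 and 3.84 RPKM, a log2 fold change of -0.42.

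Interferon gamma is the classical inducer of Ciita, and its own transcript, Ifng, was listed at 0 in both libraries. Of the 17 genes of this axis 2 were called higher and 1 lower, with a median log2 fold change of 0.43. The receptor chains Ifngr1 and Ifngr2 had log2 fold changes of 1.06 and 0.94, and Irf8, a transcription factor of myeloid cells, had 1.05. Irf1, a transcription factor induced by interferon gamma, had a log2 fold change of 0.61. The targets Cxcl9 and Cxcl10 were at 2.26 and 4.48 RPKM in oil and at 2.13 and 2.64 RPKM in the CCl4 library. Iigp1, an interferon-inducible GTPase, was lower in the CCl4 library, 24.3 against 84.9 RPKM, with a log2 fold change of -1.80. Both upward calls were lost with scaling to the median transcript (Ifngr1 at 0.74, Irf8 at 0.73) or the upper quartile (0.80 and 0.79), and with the former 3 genes were lower. The counts of this list stood near the shares over all genes, and the part of interferon gamma in the members' difference was not tested.

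Of 10 other costimulatory genes, 4 were called higher and 0 lower, and 4 were listed at 0 in both libraries (Cd70, Pdcd1lg2, Tnfsf4 and Tnfsf9). Cd80, which binds the same T cell receptors as Cd86, was listed at 0 in oil and at 1.37 RPKM in the CCl4 library. Cd40, through which helper T cells license antigen presenting cells, was at 1.27 and 3.01 RPKM, a log2 fold change of 1.19. Cd83, which stabilizes class II at the cell surface, was at 1.98 and 4.39 RPKM, and Cd274, the inhibitory ligand PD-L1, at 1.75 and 3.68 RPKM. Cd48 was at 6.01 and 16.5 RPKM. Of the 4 called, only Cd48 passed with 1 RPKM added or with scaling to the median transcript, where Cd40 was at 0.82 and 0.87, Cd83 at 0.86 and 0.79, and Cd274 at 0.77 and 0.71. Marchf1, the ubiquitin ligase that removes class II and Cd86 from the surface, was at 6.31 and 9.46 RPKM, a log2 fold change of 0.58. Of the 6 turnover and trafficking genes with a row, 1 was called higher and 0 lower, the tetraspanin Cd63, at 6.21 and 76.0 RPKM. Cd86 had a smaller fold change than each of the 5 costimulatory genes with a value in both libraries, whose fold changes ran from 0.80 to 1.44.

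**Figure D4:**
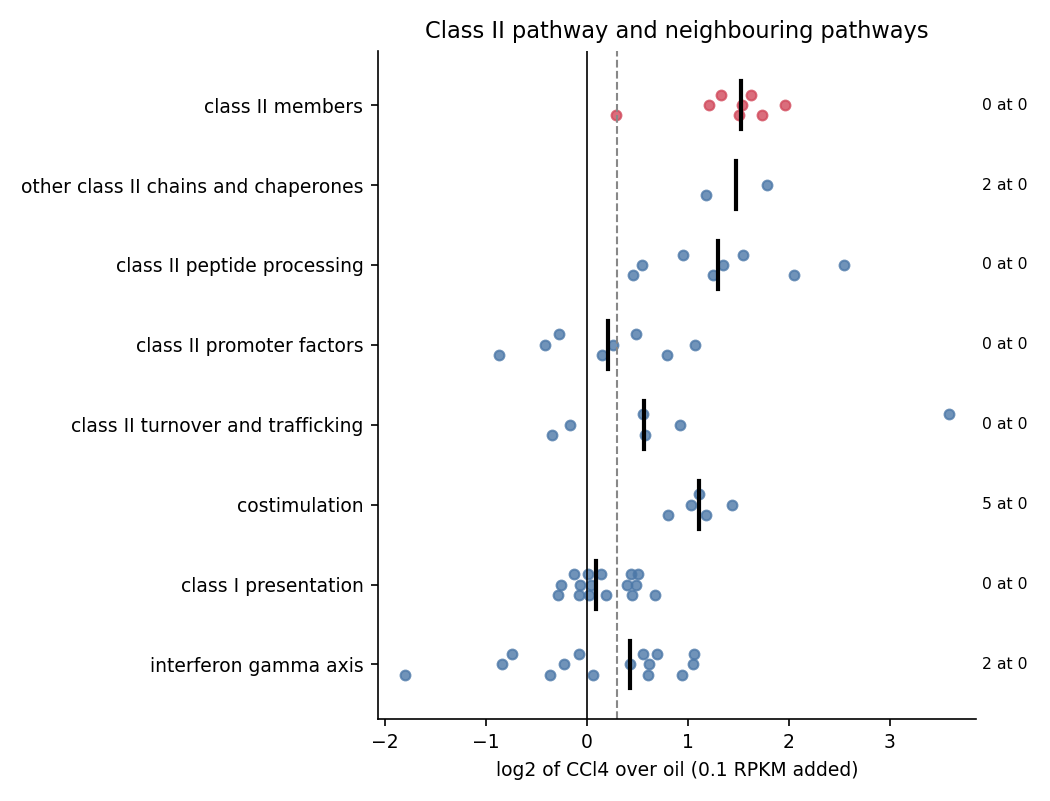
Log2 of CCl4 over oil (0.1 RPKM added) of single genes (points) in the members and in 7 lists of the class II pathway, costimulation, class I presentation and the interferon gamma axis, with list medians as black bars, the median of all genes as a dashed line and the number of genes at 0 in a library at the right. The members' median of 1.53 stands beside 1.30 for peptide processing, 0.20 for promoter factors and 0.094 for class I presentation.

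Markers of cells that carry class II were measured in the same libraries. All 6 pan-leukocyte genes were above 0 in both libraries and 5 were called higher, their summed level going from 138.5 RPKM in oil to 327.2 RPKM with CCl4, with a median log2 fold change of 1.08. With scaling to the median transcript 1 of the 6 was still called, Laptm5. Ptprc, CD45 of all leukocytes, had a log2 fold change of 0.82. When the libraries were scaled to these 6 genes, a scaling added once the data were known, the members ran from -0.77 for Cd86 to 0.91 for Ciita. Per Ptprc, H2-Ab1 was 5.06 in the oil and 8.12 in the CCl4 library, and Cd86 was 0.393 and 0.272. Per Laptm5, another pan-leukocyte gene, H2-Ab1 was 2.17 and 2.02, and Laptm5 was the exception, since 5 of the 6 pan-leukocyte genes had smaller log2 fold changes than H2-Ab1. The part of leukocyte content in the members' difference was not tested.

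Kupffer cell and macrophage markers included 7 of 11 genes called higher and 0 lower, with a summed level of 1499 RPKM in oil and 3155 RPKM with CCl4. With scaling to the median transcript 2 of 11 were called. Csf1r was at 75.5 and 179.0 RPKM, and C1qa at 219.4 and 481.8 RPKM, with log2 fold changes of 1.24 and 1.13 in a list that ran from -0.15 for Clec4f to 2.71 for Marco. Clec4f and Timd4, which mark resident Kupffer cells, were at 282.6 and 13.1 RPKM in oil and at 254.5 and 17.1 RPKM in the CCl4 library. H2-Ab1 per Csf1r was 0.868 in the oil and 1.04 in the CCl4 library and per C1qa 0.299 and 0.388, while Cd74 per Csf1r was 1.62 and 1.58 and Cd86 per Csf1r 0.0675 and 0.0350. H2-Ab1 per Clec4f was 0.232 and 0.734. Of 12 monocyte and recruited macrophage markers 10 were called higher and 0 lower, with log2 fold changes from -0.70 to 7.40, and with scaling to the median transcript 6 were higher and 1 lower. The summed level went from 441.5 to 2264 RPKM, most of it Lyz2, lysozyme of myeloid cells, at 321.0 and 1645 RPKM. Per Lyz2, H2-Ab1 fell from 0.204 in the oil to 0.114 in the CCl4 library. Gpnmb had the largest fold change of the list, from 1.19 to 217.3 RPKM, whereas Ly6c2, of inflammatory monocytes, was at 17.7 and 10.8 RPKM and Chil3 at 8.68 and 5.84 RPKM. None of the 23 markers listed for macrophages and monocytes with a row in the table was at 0 in either library.

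Dendritic and B cell markers were at low levels. Of 13 dendritic cell markers 3 were called higher (1 with scaling to the median transcript) and 0 lower, with a summed level of 27.6 RPKM in oil and 60.8 RPKM with CCl4. Itgax, CD11c, was at 1.25 and 10.2 RPKM, Zbtb46 at 7.44 and 13.5 RPKM and Clec9a at 4.24 and 5.66 RPKM. Xcr1, Irf4 and Itgae were listed at 0 in both libraries, and Flt3, Cd209a and Ccr7 at 0 in oil alone. H2-Ab1 per Itgax was 52.4 in the oil and 18.3 in the CCl4 library, and H2-Ab1 per Zbtb46 was 8.81 and 13.9.

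Of 11 B cell markers 4 were called higher and 0 lower (1 higher with a mean of at least 5 RPKM required and 0 with the pan-leukocyte scaling), with a summed level of 9.16 RPKM in oil and 34.3 RPKM with CCl4. Cd79b, a signalling chain of the B cell receptor, was at 3.67 and 11.2 RPKM, so H2-Ab1 per Cd79b was 17.9 and 16.7. Pax5, Ebf1 and Cr2 were at 0 in both libraries. Of 10 T and NK cell markers, 6 of them above 0 in a library and 4 with a fold change, 0 were called in either direction. Cd3e, Cd8a, Cd28 and Ctla4 were at 0 in both libraries. The summed level of the list was 15.0 RPKM in oil and 8.96 RPKM with CCl4. In this list 1 gene was lower with the transcripts of a gene summed, 2 at a fold of 1.5 and 3 with the pan-leukocyte scaling. The part of any 1 of these cell types in the members' difference was not tested.

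**Figure D5:**
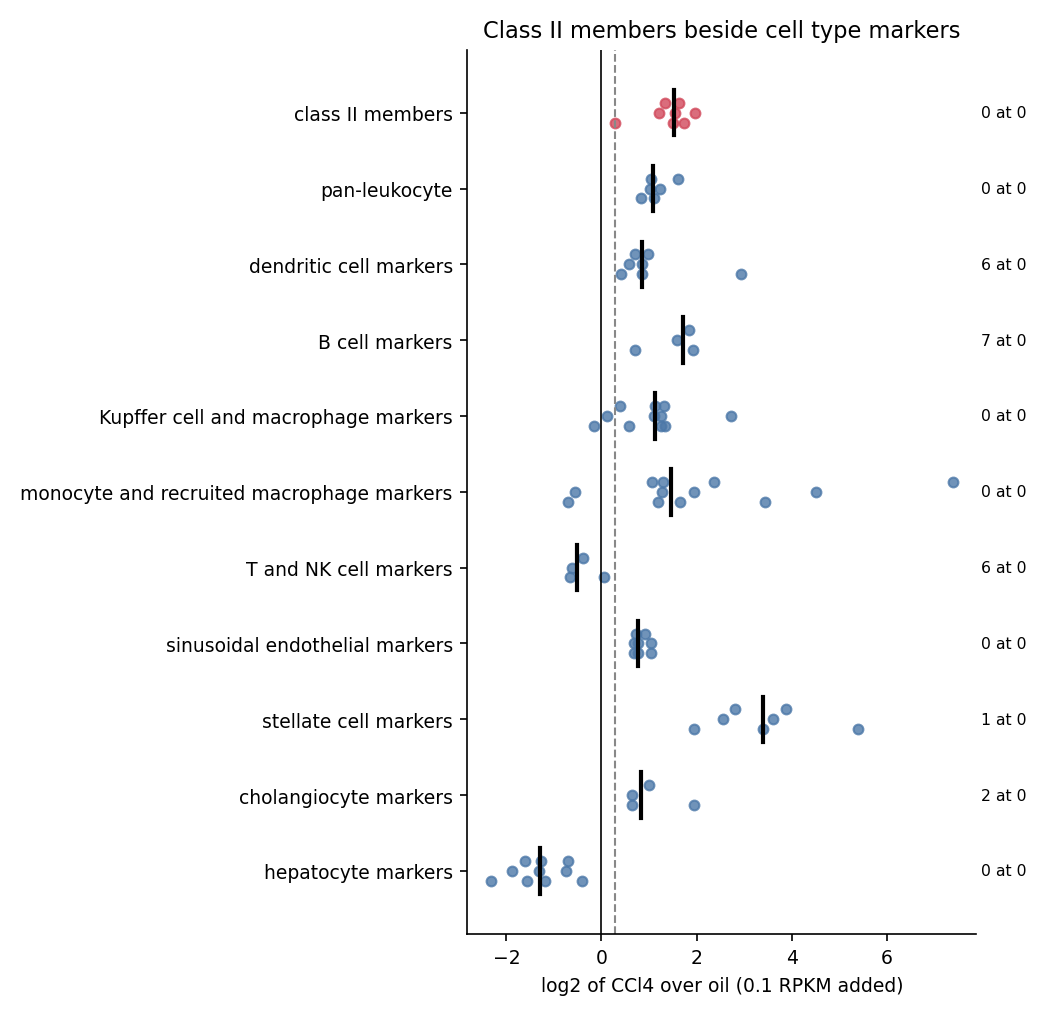
Log2 of CCl4 over oil (0.1 RPKM added) of single genes (points) in the members and in 10 lists of cell type markers, with list medians as black bars, the median of all genes as a dashed line and the number of genes at 0 in a library at the right. The members' median of 1.53 lies beside 1.47 for monocytes and recruited macrophages, 1.13 for Kupffer cells and macrophages, 1.71 for B cells and 0.84 for dendritic cells.

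Markers of other liver cells differed as well. Of 10 hepatocyte markers 7 were called lower and 0 higher, with a median log2 fold change of -1.29, and 8 of 8 stellate cell markers were called higher. Of 8 sinusoidal endothelial markers 2 were called higher, with a median of 0.76, but 0 with scaling to the median transcript or the upper quartile, and of 6 cholangiocyte markers 2 were called higher and 2 were at 0 in both libraries. Those called were Krt19, just at the threshold, and Spp1, which is also among the monocyte and recruited macrophage markers, and 1 of them was called with either scaling.

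The 5 genes nearest to H2-Ab1 in log2 RPKM over the 2 libraries (Euclidean distance, members left out) were H4c11 at a distance of 0.084, Mpeg1 at 0.12, H2bc18 at 0.13, H2bc3 at 0.18 and Crip1 at 0.21. Mpeg1, perforin-2 of macrophages, was at 60.5 RPKM in oil and 181.9 RPKM with CCl4, and H4c11, H2bc18 and H2bc3 encode histones. With 2 libraries such nearness says no more than that both values are alike.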

How the data were processed

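RNA-seq of 2 hepatocyte libraries, oil and CCl4, was analysed. The authors deposited RPKM values per transcript, with values under 1 listed as 0, and for new lncRNAs also read counts and RPKM without that step. The submitters' processing notes name CASAVA 1.4, TopHat2 and mm10, and the counting program and annotation version are not given in the sources used here. The authors' own log2 fold changes, p-values and q-values were not used. New lncRNAs showed the step: all 1354 values under 1 RPKM in oil and all 1347 in CCl4 were listed at 0 in the comparison table.

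Symbols came from a GRCm38.p6 gene table by RefSeq identifier (27049 of 27457 mRNA transcripts), and the transcript with the highest mean RPKM stood for a gene. The members, the 17 other lists and the tests were chosen with earlier results of these data known. Genes named are the members, genes of the lists and the 5 nearest to H2-Ab1, and Brd2, which was chosen after its values were seen. Plk1 and Ift74 were named as genes outside class II that hold the promoter pair and were listed at 0 in oil.

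No test was possible with 1 library per group, so genes were called where log2 of CCl4 over oil, with 0.1 RPKM added as pseudocount, was 1 or more in size. Library totals were those that made RPKM of RefSeq genes under 400 bases whole within 0.02 reads (165 of 169 genes in oil, 180 of 185 in CCl4). The shortest length from 50 to 30000 bases giving whole reads in both libraries then gave lower bounds of the reads. Intervals cover counting error only. Alternatives were the pseudocount, scaling, filters, summed transcripts and the fold. Statistics were tested on simulated data. Python 3.11.15, numpy 2.4.6, pandas 2.3.3, scipy 1.17.1 and matplotlib 3.10.9 were used.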

Additional observations from a re-analysis of the deposited data

Results flagged for a closer look

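A lncRNA absent from the annotation, TCONS_00036801, lies in the class II region at chr17:34143732-34144846 (mm10, plus strand), inside the span of H2-DMb2. It was picked out because it belongs to a table that the comparisons do not use and had more reads in the CCl4 library than in the oil library, 16 against 4. Its RPKM was 0.202 in the CCl4 and 0.0575 in the oil library, a log2 ratio of 1.82, and counting error alone places that ratio between 0.18 and 3.85 (95% exact Clopper-Pearson interval). The RPKM of new lncRNAs rest on library totals of 62438197 reads in oil and 70960849 in CCl4, larger than those found from the mRNA values. TCONS_00036801 is the only new lncRNA of that table within the region from H2-Oa to H2-Ea. Whether its reads belong to H2-DMb2 was not tested.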

How the results depend on the processing

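No paired analysis was possible because there is 1 library per condition, and for the same reason no library could be left out. The number of members called higher, 7, was 6 with scaling to the median transcript, to the upper quartile or with a mean of at least 5 RPKM (which leaves out Ciita), 0 with scaling to 6 pan-leukocyte genes, a setting added after the values were seen, and 7 in the other settings, and 0 members were lower in any. The members' median of 1.53 became 1.20 with scaling to the median transcript, 1.27 with the upper quartile and 0.44 with the pan-leukocyte genes. The summed chains and Cd74, at 1.42, became 1.10, 1.16 and 0.34 in the same order, and 1.36 with the transcripts of a gene summed. Over all transcripts, 2649 higher and 857 lower became 1429 and 1517 with the median transcript, 1617 and 1326 with the upper quartile, and 319 and 5104 with the pan-leukocyte genes. With a mean of at least 5 RPKM 1337 were higher, and at a fold of 1.5 it was 5310 higher and 1808 lower. With the pan-leukocyte scaling 38 of 87 values for single genes and lists changed sign, among them Cd86 (-0.77) and, of genes that had been called, Cd274, Irf8, Ifngr1 and Krt19, to -0.013, -0.031, -0.021 and -0.075. Of the values for single genes and lists under alternatives, 438 moved by less than 0.5 of the width of the counting interval, taken for a list's median from its middle genes (0.1 where a gene had no interval), 255 moved further, and the 4 called genes named above changed sign. Scaling to the median transcript changed 7 of 90 signs, the upper quartile 5 of 90 and a mean of at least 5 RPKM 1 of 70. Scaling removes a common shift by construction, 0.33 for the median transcript, 0.26 for the upper quartile and 1.09 for the pan-leukocyte genes. Values under 1 RPKM are not resolved, which limits Cd80, Flt3 and H2-Oa.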
